A study of Mus musculus with 6 samples.

Results

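The 10 genes described here encode the machinery that decides whether a haematopoietic stem cell (HSC) leaves G1 phase: the D cyclins Ccnd1, Ccnd2 and Ccnd3, their kinases Cdk4 and Cdk6, the CDK inhibitors Cdkn1a, Cdkn1b, Cdkn1c and Cdkn2c, and Rb1. They were chosen by gene name, and all 10 were found among the 18368 genes of the count table and among the 14443 genes tested. RNA was sequenced from about 2000 sorted bone marrow HSCs of adult mice per library. The wild-type group holds 3 libraries, all from Ramp1+/+ animals. The mutant group holds 3 libraries whose genotype field reads Ramp-/- and whose titles name Ramp1 as mutant. The labels do not say how the allele was made, which sort gates were used, or whether libraries came from separate or pooled animals, so p-values measure only the spread between these libraries. Ramp1 encodes a subunit of the receptor for the neuropeptide CGRP, and the series title concerns nociceptive nerves and stem cell mobilization.

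D cyclins bind CDK4 or CDK6, and the complexes phosphorylate the retinoblastoma protein RB, which then releases E2F transcription factors so that S phase genes are transcribed. INK4 proteins such as p18, encoded by Cdkn2c, bind CDK4 and CDK6 directly, whereas the CIP/KIP proteins p21, p27 and p57, encoded by Cdkn1a, Cdkn1b and Cdkn1c, bind cyclin-CDK complexes. HSCs are mostly quiescent, and p57 is known as a factor that keeps them so.

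Ramp1 itself followed the labels, with 88.3 to 91.4 FPKM in the wild-type libraries and 1.35 to 3.53 in the mutant ones (FPKM: counted reads scaled by gene length and by the library's total). Libraries held 22796771 to 26734561 counted reads. All 9 HSC markers given here, Kit, Procr and Hlf among them, were detected in every library, with a summed level of 931 to 1102 FPKM in wild type and 921 to 1181 in mutant. Of the 5 T and NK cell markers, Cd3e, Cd3g and Il7r were at 0 in all wild-type libraries and in mutant replicate 1. In mutant replicates 2 and 3 Cd3g had 0.878 and 0.158 FPKM, Cd3e 0.130 and 0.196, and Il7r 0.163 and 0.0502. Cd3d was at most 0.388 FPKM, in wild-type replicate 1, whereas Nkg7 had 28.2 to 62.2 FPKM. The list summed to 35.9 to 62.6 FPKM in wild type and 29.7 to 45.1 in mutant. The 7 neutrophil markers (S100a8, S100a9, Ltf, Camp, Ngp, Elane and Mpo) varied widely, summing to 34.2, 307 and 758 FPKM in wild-type replicates 1, 2 and 3 and to 168, 808 and 1059 FPKM in the mutant ones. S100a8 and S100a9 made up most of each sum, and Elane and Mpo were highest in replicate 2 of each genotype. Replicate 1 of each group held 6527 and 6137 reads of 4 Y-linked genes, against 0 to 2 in the other libraries. Mutant replicate 3 stood apart from the other mutant libraries in cell cycle genes, as described below.

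None of the 10 genes differed between the genotypes at the threshold used, a Benjamini-Hochberg adjusted p under 0.05 over all 14443 genes in edgeR's quasi-likelihood test. The adjusted p was 0.999 for each of them. Among all genes tested 0.0208% passed this threshold. At an unadjusted p under 0.05 there was 1 of the 10, Rb1, against 3.99% of all genes (1.7% with lower and 2.28% with higher values in mutant cells). The ranges of the 3 wild-type and 3 mutant libraries overlapped for all 10, whereas they did not overlap for 10.3% of all genes, and for 4.32% with the mutant libraries lower. Lower values in mutant cells were seen for 7 of the 10 and higher ones for 3, and 49.9% of all genes had lower ones. The median log2 fold change was -0.03 beside 2.96e-04 over all genes tested. DESeq2, which called 0.265% of the genes it tested, limma and limma-voom also called 0 of the 10.

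**Figure D1:**
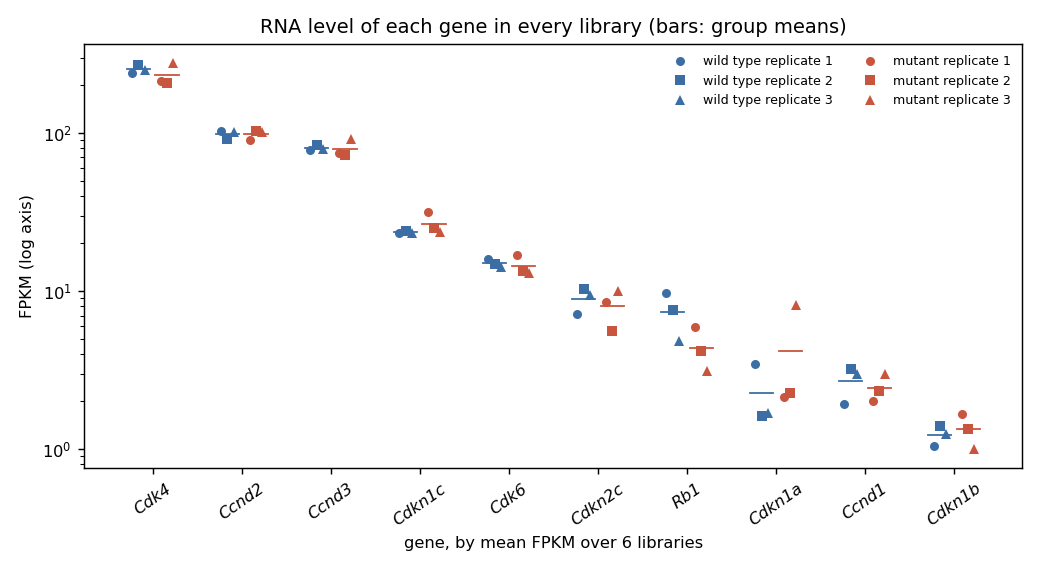
FPKM on a log axis of each gene in the 6 libraries, ordered by the mean over all libraries; symbols mark the replicate number and bars the mean of 3 libraries. Cdk4 lies highest at 207 to 276 FPKM, Cdkn1b lowest at 1.0 to 1.68 FPKM, and the genotypes overlap for every gene.

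The order of the mean levels per length was Cdk4, Ccnd2, Ccnd3, Cdkn1c, Cdk6, Cdkn2c, Rb1, Cdkn1a, Ccnd1 and Cdkn1b. Cdk4 stood at percentile 98.6 of all tested genes by mean FPKM, Ccnd2 at 94.5 and Ccnd3 at 92.9. Cdkn1c was at percentile 74.1, Cdk6 at 61.2 and Cdkn1b at 19.9. Over the 6 libraries the ranges of the neighbours Cdk4 and Ccnd2, Ccnd3 and Cdkn1c, Cdkn1c and Cdk6, Cdk6 and Cdkn2c, and Ccnd1 and Cdkn1b did not overlap. The ranges of Ccnd2 and Ccnd3, of Cdkn2c and Rb1, of Rb1 and Cdkn1a, and of Cdkn1a and Ccnd1 did. With the longest full-coding transcripts as lengths Cdk6 ranked below Cdkn2c and Rb1, and with the shortest Ccnd1 ranked last.

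Ccnd2 and Ccnd3 supplied nearly all D cyclin RNA. Ccnd2 (ENSMUSG00000000184, mm10 chromosome 6, 127125779 to 127151048, minus strand) had 103, 91.4 and 102 FPKM in wild-type replicates 1, 2 and 3 and 90.4, 102 and 101 FPKM in the mutant ones. Its log2 fold change was -0.0094 (SE 0.09; edgeR adjusted p = 0.999), with a 95% interval of 0.858 to 1.15 for the fold, mutant over wild type. The 6 values mix freely, with the lowest and the highest in mutant and wild-type replicate 1. Ccnd3 (ENSMUSG00000034165, chromosome 17, 47505051 to 47599691, plus strand) had 77.6, 83.9 and 78.9 FPKM in wild type and 75.2, 72.3 and 91.3 FPKM in mutant cells. Mutant and wild type differed by -0.0089 on the log2 scale (SE 0.11), and the fold had an interval of 0.829 to 1.19. Mutant replicate 3 was the highest library and mutant replicates 1 and 2 the lowest.

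Ccnd1, the D cyclin induced by mitogens in many tissues, was low. Ccnd1 (ENSMUSG00000070348, chromosome 7, 144929931 to 144939869, minus strand) had 1.92, 3.19 and 2.99 FPKM in wild type and 2.03, 2.34 and 2.98 FPKM in mutant cells, from 173 to 297 reads. Replicate 1 was the lowest library of both genotypes. Mutant minus wild type was -0.14 on the log2 scale (SE 0.28), and the interval of the fold, 0.580 to 1.43, was wider than for the other D cyclins. The opposite-strand gene LTO1 (Oraov1 in the count table) overlaps 1100 bases of Ccnd1's exons in GENCODE vM21. The sources used here do not say whether counting used strand, so this low level is uncertain.

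As a share of the summed D cyclin FPKM, Ccnd2 made up 54.4% ± 2.78 in wild type and 54.5% ± 3.09 in mutant cells (SD, n = 3 each). Ccnd3 made up 44.2% ± 2.48 and 44.2% ± 3.01, and Ccnd1 1.49% ± 0.388 and 1.35% ± 0.161. Exact two-sided permutation tests gave p = 1.0 for Ccnd2, 1.0 for Ccnd3 and 0.7 for Ccnd1 (adjusted p = 1.0 over the 6 ratios tested here); the smallest p that 3 against 3 libraries allow is 0.1. The order of Ccnd2 and Ccnd3 rested on the gene length used. With the authors' gene lengths of 5701 and 3858 bases Ccnd2 exceeded Ccnd3 in all 6 libraries, by 1.09 to 1.41 times. With the length of the longest full-coding transcript in GENCODE vM21, 6330 bases for Ccnd2-201 and 2113 bases for Ccnd3-202, Ccnd3 made up 61.5% on average over the 6 libraries and Ccnd2 37.4%. Ccnd1 was at 1.34% or less in every library with these lengths.

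**Figure D2:**
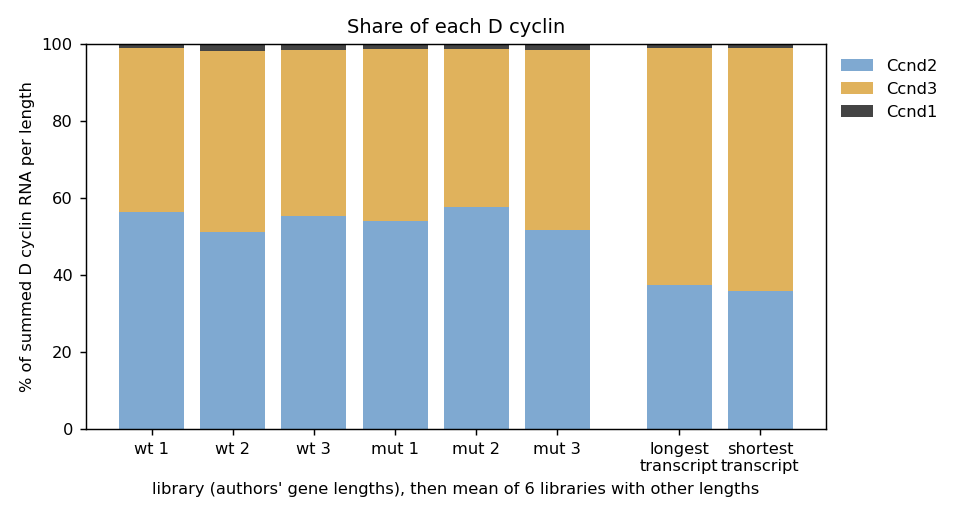
Share of each D cyclin in the summed D cyclin RNA per gene length, in percent, for the 6 libraries with the authors' gene lengths and, at the right, as means over the 6 libraries with the longest or shortest full-coding GENCODE vM21 transcript. Ccnd2 takes 51.2% to 57.8% with the authors' lengths, and Ccnd3 takes the larger share with transcript lengths.

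Cdk4 was the most abundant of the 10 genes. The 250 bases that end at its first base in the count table are shown. They hold the E-box CACGTG, the site bound by MYC with its partner MAX, 4 times. The sequence is from RefSeq (GRCm38.p6, chr10:127063285-127063534, plus strand), 5′ to 3′ with each CACGTG in capitals.
Cdk4 promoter: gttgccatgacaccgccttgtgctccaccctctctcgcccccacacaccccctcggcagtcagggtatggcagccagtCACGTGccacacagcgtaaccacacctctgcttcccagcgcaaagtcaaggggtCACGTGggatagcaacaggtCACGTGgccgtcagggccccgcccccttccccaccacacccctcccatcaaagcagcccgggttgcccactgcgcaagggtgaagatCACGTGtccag
CACGTG, which reads the same on both strands, occurs at least once in 6.02% of the 32851 windows of this length in the table and at least 4 times in 7 windows. Of the 10 genes, 6 had windows in the table (Ccnd3, Cdk4, Cdk6, Cdkn1a, Cdkn1b and Cdkn2c, 9 windows in all), and the motif was found in those of Cdk4 and, 1 time, Cdk6. The cyclic AMP response element TGACGTCA, also its own reverse complement, was in none of the 9 windows and in 1.55% of all windows. Such matches describe letters in these windows and no binding was measured.

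Cdk4 (ENSMUSG00000006728, chromosome 10, 127063534 to 127067920, plus strand) had 240, 271 and 249 FPKM in wild type and 212, 207 and 276 FPKM in mutant cells. Mutant replicates 1 and 2 lay below every wild-type library and mutant replicate 3 above them all. On the log2 scale the difference was -0.13 (SE 0.13; edgeR adjusted p = 0.999), and the interval of the fold was 0.742 to 1.13. Without mutant replicate 3 it was -0.29, with an unadjusted p of 0.0249 and an adjusted p of 0.609 by edgeR. In that fit 7.53% of all genes had an unadjusted p under 0.05. Since mutant replicate 3 was the highest library for Cdk4, leaving it out lowers the mutant values by construction. Myc, listed among the upstream regulators, had 156, 170 and 197 FPKM in wild type and 99.7, 192 and 188 FPKM in mutant cells, so it was low only in mutant replicate 1. The opposite-strand gene Tspan31 overlaps 641 bases of Cdk4's exons in GENCODE vM21. Exons of 8 of the 10 genes overlap other genes there, among them Ccnd2 (740 bases), Ccnd3 (361), Cdk6 (368) and Cdkn1a (273). The part of these overlaps in the counts was not tested.

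Cdk6, the kinase associated with the exit of HSCs from quiescence, was much less abundant. Cdk6 (ENSMUSG00000040274, chromosome 5, 3343893 to 3523218, plus strand) had 15.9, 14.9 and 14.2 FPKM in wild type and 17.0, 13.4 and 13 FPKM in mutant cells. Replicate 1 was the highest library of each genotype. Its difference was -0.05 on the log2 scale (SE 0.13), with 0.785 to 1.18 as the interval of the fold. Cdk6 made up 5.60% ± 0.529 of the summed Cdk4 and Cdk6 FPKM in wild type and 6.0% ± 1.47 in mutant cells (SD, n = 3 each; exact permutation p = 0.8, adjusted p = 1.0). Per length Cdk4 exceeded Cdk6 by 12.5 to 21.3 times in the 6 libraries. The authors' length for Cdk6 is 3735 bases, while its full-coding transcripts in GENCODE vM21 run from 2470 to 11525 bases; Cdk4 was 8.24 to 14.1 times higher with the shorter length and 38.5 to 65.6 times higher with the longer.

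Cdkn1c was the leading CIP/KIP inhibitor. Cdkn1c (ENSMUSG00000037664, chromosome 7, 143458350 to 143461050, minus strand), the imprinted gene of p57, had 23.4, 23.8 and 23.2 FPKM in wild type and 31.8, 24.9 and 23.5 FPKM in mutant cells. The wild-type libraries lay within 1.38% (SD relative to the mean, n = 3), the smallest such spread among the 10 genes, and the mutant libraries within 16.6%. Mutant replicate 1 was the highest and mutant replicate 3 lay within the wild-type range. The difference, 0.18 on the log2 scale (SE 0.13; edgeR adjusted p = 0.999), had an interval of 0.920 to 1.4 for the fold. Without mutant replicate 1 it was 0.06. Cdkn1c made up 87.1% ± 2.79 of the summed CIP/KIP FPKM in wild type and 82.9% ± 9.47 in mutant cells (SD, n = 3 each; exact permutation p = 0.7, adjusted p = 1.0). The share rested on the gene lengths used. With the shortest full-coding transcripts it was 75.5% and 69.9%, and at least 55.3% in every library. With the longest it was 88.0% and 84.0%. The gene Gm44732 overlaps 625 bases of Cdkn1c's exons in GENCODE vM21.

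The high Cdkn1a mean of mutant cells came from 1 library. Cdkn1a (ENSMUSG00000023067, chromosome 17, 29090979 to 29100722, plus strand), the gene of p21 and a target of p53, had 3.45, 1.62 and 1.68 FPKM in wild type and 2.14, 2.25 and 8.12 FPKM in mutant cells. Mutant replicate 3 held 385 reads and the other 5 libraries 75 to 167. Mutant minus wild type was 0.90 on the log2 scale (SE 0.59; edgeR adjusted p = 0.999), and -0.04 without mutant replicate 3. On replicates 2 and 3 alone it was 1.66 (unadjusted p = 0.0404 and no pass of the adjusted threshold in edgeR). That library also had the highest sum of neutrophil markers, 1059 FPKM, and the highest S phase and mitotic levels; their part in the Cdkn1a value was not tested. The p53 gene Trp53 had 98.6 FPKM and Mdm2, another p53 target, 33.9 FPKM in mutant replicate 3, against 92.1 to 103 and 32.6 to 39.2 FPKM in the other libraries, so both lay within the range of the others.

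Cdkn1b, the gene of p27, was the lowest of the 10. Cdkn1b (ENSMUSG00000003031, chromosome 6, 134920401 to 134925513, plus strand) had 1.05, 1.4 and 1.25 FPKM in wild type and 1.68, 1.34 and 1.0 FPKM in mutant cells, from 113 to 174 reads. The highest and the lowest library were both mutant. Mutant and wild type differed by 0.11 on the log2 scale (SE 0.29), the fold having an interval of 0.683 to 1.71. The authors' length of 4552 bases is that of the longest transcript, and the shortest full-coding one has 1757 bases, so its level per length could be higher than given.

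Among the INK4 genes, Cdkn2c (ENSMUSG00000028551, chromosome 4, 109660876 to 109667189, minus strand) had 7.13, 10.4 and 9.39 FPKM in wild type and 8.5, 5.60 and 9.95 FPKM in mutant cells. Mutant replicate 2 was the lowest library, as it was for the median mitotic gene. With an SE of 0.25, the log2 fold change was -0.16, and the fold had an interval of 0.60 to 1.33. Cdkn2d, the gene of p19 and no member of the 10, was more abundant, with 41.1, 49.8 and 43.7 FPKM in wild type and 44.5, 50.03 and 41.9 FPKM in mutant cells. Cdkn2a and Cdkn2b, the INK4 genes associated with senescence, are listed at 0 FPKM in 5 of the 6 libraries each and at 0.0449 and 0.0577 FPKM in wild-type replicate 2.

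The summed inhibitors Cdkn1a, Cdkn1b, Cdkn1c and Cdkn2c stood below the summed D cyclins in every library. This sum leaves out Cdkn2d, which had 41.1 to 50.03 FPKM, so the ratio does not cover all CDK inhibitors. The log2 ratio of the sums was -2.34 ± 0.0659 in wild type and -2.17 ± 0.227 in mutant cells (SD, n = 3 each; exact permutation p = 0.3, adjusted p = 1.0). It was -2.38, -2.26 and -2.37 in wild-type replicates 1, 2 and 3 and -1.93, -2.38 and -2.20 in the mutant ones. Mutant replicates 1 and 3 were the highest, replicate 1 with the most Cdkn1c and replicate 3 with the most Cdkn1a, while mutant replicate 2 lay within the wild-type range. The mean log2 ratio over all libraries was -2.25 with the authors' gene lengths. It was -2.63 with the longest full-coding transcripts and -2.19 with the shortest.

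Rb1 had the largest difference toward lower values in mutant cells. Rb1 (ENSMUSG00000022105, chromosome 14, 73183673 to 73325822, minus strand) had 9.68, 7.6 and 4.80 FPKM in wild type and 5.89, 4.16 and 3.11 FPKM in mutant cells, from 1143, 880 and 522 reads against 625, 518 and 359. Each mutant library but replicate 1 lay below all wild-type libraries, and mutant replicate 1 lay above wild-type replicate 3. Mutant minus wild type was -0.75 on the log2 scale (SE 0.30; edgeR unadjusted p = 0.0384, adjusted p = 0.999), with an interval of the fold, before any adjustment, of 0.366 to 0.965. The authors' deposited table gives Rb1 a log2 fold change of -0.76 with a p-value of 0.0110 and an adjusted p-value of 0.626. Leaving out single libraries gave -1.0 to -0.52, with unadjusted p-values of 0.00830 to 0.147.

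Within each genotype the Rb1 level was highest in the library with the lowest sum of neutrophil markers and lowest in the one with the highest sum. Wild-type replicates 1, 2 and 3, at 9.68, 7.6 and 4.80 FPKM of Rb1, had 34.2, 307 and 758 FPKM of neutrophil markers. Mutant replicates 1, 2 and 3, at 5.89, 4.16 and 3.11 FPKM, had 168, 808 and 1059 FPKM. Of the 7 markers, 5 (S100a8, S100a9, Ltf, Camp and Ngp) were ordered like the sum in both genotypes. Elane, with 0.815, 26.5 and 0.140 FPKM in wild type and 0, 30.5 and 0.35 FPKM in mutant cells, and Mpo were highest in replicate 2 and did not follow that order. The part of this in the Rb1 difference was not tested; in bulk samples fewer cells of a type and less RNA per cell cannot be told apart. The opposite-strand gene Lpar6 lies inside Rb1 and overlaps some of its exons, and it had 595 to 792 reads in wild type and 646 to 843 in the mutant ones, a difference of 0.05 on the log2 scale (SE 0.17).

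**Figure D3:**
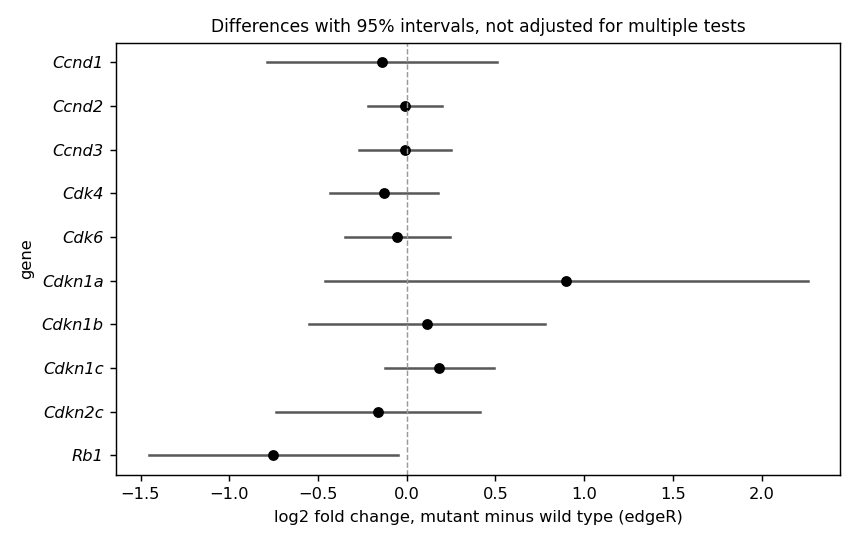
Log2 fold change of each gene, mutant minus wild type, with the 95% interval of the edgeR fit before adjustment for multiple tests. The intervals of Ccnd2, Ccnd3, Cdk4, Cdk6 and Cdkn1c are narrow and include 0, that of Cdkn1a reaches from -0.46 to 2.26, and only that of Rb1, -1.45 to -0.05, leaves out 0.

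The precision thus differed among the 10 genes. For the D cyclins Ccnd2 and Ccnd3 the intervals of the fold stayed between 0.829 and 1.19, and for Cdk4 and Cdk6 between 0.742 and 1.18. For the low genes Ccnd1, Cdkn1a and Cdkn1b the intervals reached 1.43, 4.79 and 1.71. The SD of the wild-type libraries was 6.51% of the wild-type mean for Ccnd2, 4.12% for Ccnd3 and 5.65% for Cdk6, against 46.2% for Cdkn1a and 33.3% for Rb1.

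The genes with which these 10 work were examined in 7 lists of 82 genes, of which 79 were tested. None passed the adjusted threshold, by edgeR or by DESeq2. At an unadjusted p under 0.05 there were 3 of the 79, all with lower values in mutant cells (Dyrk1a, Akt1 and Ttk). Among all genes 3.99% had such a p in either direction and 1.7% with a lower value. The groups did not overlap for 3 of the 79 (Dyrk1a, Trp53 and Ttk), each with the mutant libraries lower. Among all genes 10.3% did not overlap in either direction and 4.32% with the mutant libraries lower. Of the 18 genes of pocket proteins, E2F factors and the DREAM complex, which represses cell cycle genes in quiescence, 14 had lower and 4 higher values, and the median on the log2 scale was -0.13. Without mutant replicate 1 this list split into 9 lower and 9 higher, with a median of -0.0016. Leaving out any other single library kept 11 to 14 of the 18 lower, with medians of -0.195 to -0.023. Dyrk1a, the kinase that promotes DREAM assembly, had 10.2, 9.53 and 12.5 FPKM in wild type and 8.36, 6.53 and 3.76 FPKM in the mutant ones, a difference of -0.79 on the log2 scale (SE 0.26; adjusted p = 0.999 by edgeR). Rbl1, which encodes the RB relative p107, stood at -0.30 on the log2 scale (SE 0.14), and Tfdp1, an E2F partner, -0.20 (SE 0.14). Lin37, a DREAM subunit, had -0.17 (SE 0.12). The RB relative Rbl2 (p130) had 35.8 to 37.5 FPKM in wild type and 49.2, 45.0 and 30.4 FPKM in mutant replicates 1, 2 and 3.

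Of the 12 upstream regulators, 7 had lower and 5 higher values, and 6 had lower and 6 higher values without mutant replicate 1 or without wild-type replicate 3. Other libraries moved the split the other way, with 10 lower and 2 higher without wild-type replicate 1. Without mutant replicate 2 it was 8 lower and 4 higher. Akt1, a kinase of growth factor signalling, had 156, 146 and 128 FPKM in wild type and 130, 73.8 and 62.5 FPKM in the mutant ones, a difference of -0.70 on the log2 scale (SE 0.24; adjusted p = 0.999 by edgeR). Like Rb1, it was highest in replicate 1 and lowest in replicate 3 of each genotype, and replicate 3 had the highest sum of neutrophil markers. Elane and Mpo were highest in replicate 2 of each genotype. The part of these in the Akt1 difference was not tested. Gfi1, a repressor that restrains HSC cycling, stood at -0.42 on that scale (SE 0.26), Trp53 -0.10 (SE 0.08) and Bmi1, a repressor of the Cdkn2a locus, 0.11 (SE 0.10). Of the 11 genes for turnover and activation of D cyclins and p27, 8 had lower and 3 higher values, and their median log2 fold change was -0.02. That direction turned without mutant replicate 1, with 4 lower and 7 higher (median 0.046), and without wild-type replicate 2, with 5 lower and 6 higher (median 0.0048). Gsk3b had 0.18 (SE 0.13), the kinase chaperone Cdc37 -0.07 (SE 0.09), the cyclin H gene Ccnh 0.05 (SE 0.10) and Fbxw7, a ubiquitin ligase subunit, 0.07 (SE 0.14).

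Downstream of RB, all 18 E2F target genes of S phase and all 14 mitotic genes had lower values in mutant cells, with medians of -0.20 and -0.27 on the log2 scale, where 49.9% of all genes had lower values. Some differences were close to 0. They ranged from -0.41 (Mybl2) to -0.0014 (Mcm4) for S phase genes and from -0.57 (Ttk) to -0.0094 (Aurka) for mitotic genes. No gene of either list passed the adjusted threshold, and at an unadjusted p under 0.05 there were 0 and 1. The S phase genes with the smallest p-values were Mcm6, a subunit of the replicative helicase (-0.31, SE 0.20), Mybl2 (-0.41, SE 0.36), Chaf1a (-0.29, SE 0.25) and Mcm2 (-0.20, SE 0.17), on the log2 scale. Among mitotic genes they were Ttk (-0.57, SE 0.23), Cdk1 (-0.30, SE 0.18), Birc5 (-0.37, SE 0.24) and Ccnb1 (-0.31, SE 0.21). The cyclin E and A genes with Cdk2 and Cdc25a, which act between D cyclins and S phase, had 5 of 5 tested genes lower. With single libraries left out 3 to 5 of the 5 were lower, the 3 being without mutant replicate 1. Cdk2 had -0.18 (SE 0.15), Ccne2 -0.36 (SE 0.38), Ccna2 -0.20 (SE 0.22) and Cdc25a -0.07 (SE 0.16). Ccna1, the other gene of that list, was outside the count table.

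The mutant libraries were not alike in these lists. Relative to the mean of all 6 libraries, the median S phase gene lay at -0.43 and -0.36 in mutant replicates 1 and 2 and at 0.45 in mutant replicate 3, while the wild-type libraries lay between -0.00082 and 0.27. The median mitotic gene lay at -0.27, -0.63 and 0.40 in mutant replicates 1, 2 and 3 and between 0.02 and 0.25 in wild type. Mutant replicate 3 was thus the highest library in both lists and mutant replicates 1 and 2 the lowest. Without mutant replicate 3, 14 of 18 S phase and 11 of 14 mitotic genes had an unadjusted p under 0.05, against 7.53% of all genes, and none passed the adjusted threshold. All 18 and all 14 had lower values in that fit, as did 50.2% of all genes. Since mutant replicate 3 was the highest library in both lists, leaving it out lowers the mutant values by construction. The genes of a list come from the same libraries and can move together, so these counts are not of independent results. Without mutant replicate 2, 11 of 18 S phase and 9 of 14 mitotic genes had lower values, with medians of -0.076 and -0.047. Without mutant replicate 1 it was 12 of 18 and 13 of 14, with medians of -0.026 and -0.20. Cdk4 and Ccnd3 shared the order of the mutant libraries, with replicate 3 above all wild-type libraries and replicates 1 and 2 below them. Ccnd2 and Cdk6 did not, since mutant replicate 3 was not their highest library.

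**Figure D4:**
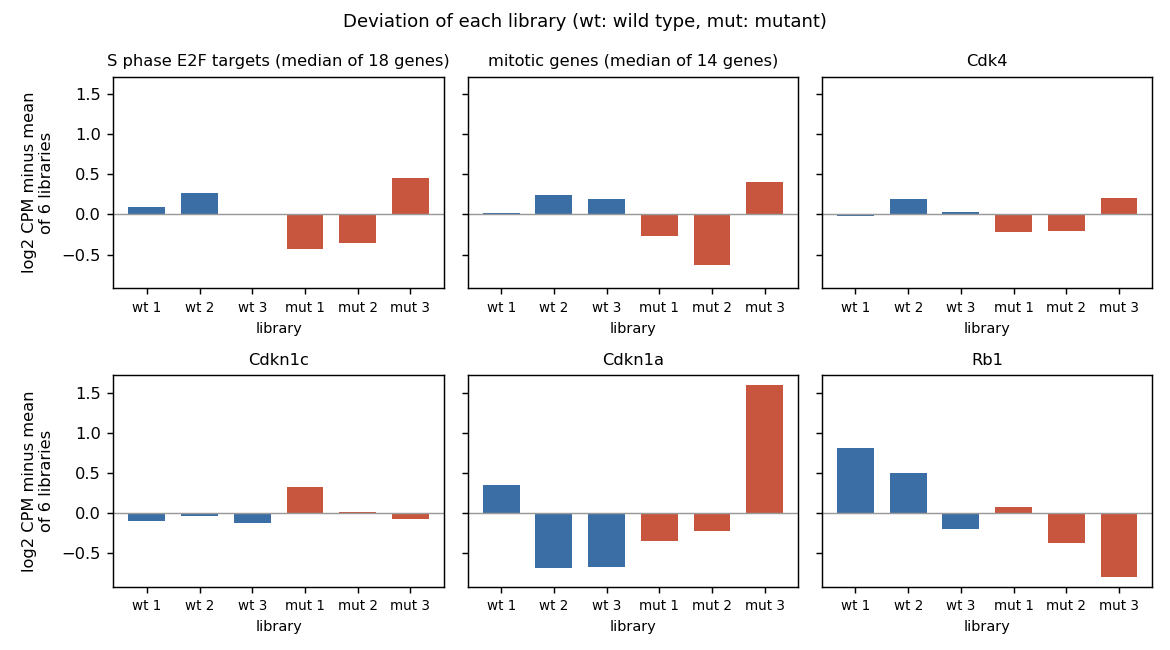
Log2 CPM of each library minus the mean of the 6 libraries, for the median of 18 E2F target genes of S phase, the median of 14 mitotic genes, Cdk4, Cdkn1c, Cdkn1a and Rb1; blue bars are wild type and red bars mutant. Cdk4 is low in mutant replicates 1 and 2 and high in mutant replicate 3, as are both lists, while Cdkn1a stands out only in mutant replicate 3 (1.60) and Rb1 is lowest there (-0.80).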

How the data were processed

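Per the submitters' processing notes, CASAVA, STAR, HTSeq 0.6.1 and DESeq2 were used with the build mm10, with no role or order given; the annotation release and strand setting were not given in the sources used here. The deposited count table holds raw read counts per gene, the authors' size-factor-normalized signal, which was not used here, and FPKM, log2 fold changes and p-values of the authors. Per the file headers, FPKM values are also in a table of 35275 genes. The authors' FPKM used 1 length per gene.

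Counts were fitted with edgeR 4.0.16 in R 4.3.3 (TMM scaling, filterByExpr, quasi-likelihood F test, Benjamini-Hochberg adjustment over 14443 genes), grouped by the genotype in the labels. Standard errors were derived from each log2 fold change and its F statistic, and intervals use the fit's degrees of freedom. Ratios used exact permutation tests. Log2 CPM had a prior count of 2. In simulated counts for this comparison (14443 genes, 50 changed at each fold), 10% of the genes altered 1.5-fold were found, as were 40% of those altered 2-fold, 76% of those altered 4-fold and 76% of those altered 8-fold; unchanged genes made up 5.61% of the calls. With so many altered genes the Benjamini-Hochberg cut was easier to pass than in the real comparison, where 3 genes passed. The simulated rates may therefore overstate what the real comparison could find. DESeq2 1.42.0 and limma 3.58.1 served as alternatives, beside other scalings, filters and left-out libraries. Named genes were the 10 members, Ramp1 and, of each further list, up to 4 tested genes of at least 1 FPKM with the smallest unadjusted p. Cdkn2a, Cdkn2b, Ccna1, Myc, Mdm2, Rbl2 and the genes overlapping members were added after their values were seen, as were Trp53's values by library. The members and lists were chosen with earlier results of these data known. Each pair of libraries differed by more than sampling noise. Transcript lengths and overlaps came from GENCODE vM21, of the same build. One marker of the HSC list is not reported here.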

Additional observations from a re-analysis of the deposited data

How the results depend on the processing

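None of the 10 genes passed the adjusted threshold in the main fit or in any of the 17 other fits. The count over all genes was 3 in the main fit, 44 with DESeq2 and 2 to 6 with single libraries left out (6 without mutant replicate 2). Fits on replicates 2 and 3 alone, the libraries without Y-linked reads, turned the sign of Ccnd2 (0.087), Ccnd3 (0.017) and Cdkn1b (-0.17), and moved Cdkn1a from 0.90 to 1.66 (unadjusted p = 0.0404 by edgeR); Rb1 had -0.77 there and -0.75 with a covariate for Y-linked reads, a setting chosen after seeing the data. With single libraries left out, the log2 fold change ranged from -0.34 to 0.025 for Ccnd1, -0.045 to 0.062 for Ccnd2, -0.13 to 0.053 for Ccnd3, -0.17 to 0.0065 for Cdk6, -0.042 to 1.34 for Cdkn1a, -0.061 to 0.27 for Cdkn1b and -0.36 to 0.039 for Cdkn2c. The sign held for Cdk4 (-0.29 to -0.05), Cdkn1c (0.06 to 0.26) and Rb1 (-1.0 to -0.52). The difference of the shares, in percentage points, then ranged from -0.354 to 0.0155 for Ccnd1, -1.53 to 1.52 for Ccnd2, -1.30 to 1.65 for Ccnd3, -0.32 to 1.15 for Cdk6 and -7.44 to 1.20 for Cdkn1c, and that of the log2 ratio from 0.05 to 0.28. For Ccnd3 the difference was 8.60e-04 with the authors' gene lengths and -0.0065 and -0.0076 with the longest and shortest transcripts, lengths also chosen after seeing the data. Lower values were seen in 11 to 18 S phase and 9 to 14 mitotic genes with single libraries left out.

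Deviations of same-numbered libraries correlated at 0.138, 0.0018 and -0.094 across 14443 genes, and those of differently numbered ones at -0.133 to 0.146. These values do not settle whether the replicate numbers pair the libraries. Replicate 1 of both genotypes held nearly all Y-linked reads, and Elane and Mpo were highest in replicate 2 of both. With the replicate number as a block 2 genes passed in all; Rb1 had -0.74 (unadjusted p = 0.0030, adjusted p = 0.990) and Cdkn1a 0.67. The block left the mean differences of the ratios as they were, by construction. In the ratios library scaling cancels, so the scaling alternative changed none.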
